A study of Caenorhabditis elegans with 2 samples.

Results

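Noncoding RNA genes that are neither transfer RNA, small nucleolar, small nuclear, micro nor Piwi-interacting RNA genes were examined for binding of the F10E7.11 protein in whole worms. The noncoding RNA regions were the candidate regions of the pooled peak list whose summit lay within 100 bp of an Ensembl gene of biotype ncRNA, lincRNA or antisense RNA, with no gene of those 5 small RNA types within 250 bp of the summit. There were 839 such regions among 18286 candidate regions in the pooled list. Another 303 candidate regions lay within 100 bp of a noncoding RNA gene but were left out because of a small RNA gene nearby. The choice used annotation and summit positions, not the strength of binding.

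Chromatin immunoprecipitation with sequencing (ChIP-seq) was performed on Caenorhabditis elegans strain OP658, which carries the allele unc-119(tm4063) on chromosome III and the transgene wgIs658. The transgene expresses F10E7.11 with a C-terminal GFP-FLAG tag, so binding was read from a tagged, transgenic copy of the protein. Both samples were pooled male and female young adults, taken 63 hours after release of starved L1 larvae, and are biological replicates 1 and 2 of the only group. The description names an anti-GFP antibody, whereas the antibody field names F10E7.11. Since whole worms were used, strong binding in a few cells and weak binding in many cannot be told apart. The replicate lists held 18116 candidate regions for replicate 1 and 25275 for replicate 2, and the authors' list of peaks reproducible between replicates (IDR list, for irreproducible discovery rate) held 575 peaks. Read depth is unknown from these lists.

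RNA that does not encode protein serves many roles in a cell. RNase P RNA is the catalytic RNA that trims the 5′ leader from transfer RNA precursors, RNase MRP RNA belongs to a related complex that cuts ribosomal RNA precursors, and the RNA of the signal recognition particle is the scaffold that helps bring ribosomes making secreted proteins to the endoplasmic reticulum. In many eukaryotes these RNAs are made by RNA polymerase III, which also makes transfer RNAs. Long intergenic RNAs (linc genes in worms) and antisense RNAs (anr genes) are longer transcripts whose functions are mostly unknown. The largest biotype, ncRNA, is mainly short annotated transcripts known by sequence names alone, and no role is given here for those.

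The summit sequences below are shown because they belong to leading or named noncoding RNA regions, 1 at a long intergenic RNA gene, 1 at the RNase MRP RNA gene and 2 at short ncRNA genes. Each is the 100 bases centred on the summit, on the plus strand of ce11, and capitals mark the 6-base words GAGAGA or ACGCAG, on either strand, where present. They were read from the RefSeq genome of the same build.
F54D5.22, chrII:11545434-11545533: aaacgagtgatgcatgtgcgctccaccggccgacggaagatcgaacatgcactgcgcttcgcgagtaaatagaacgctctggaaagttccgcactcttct
F56F3.10 and F56F3.11, chrIII:4475597-4475696: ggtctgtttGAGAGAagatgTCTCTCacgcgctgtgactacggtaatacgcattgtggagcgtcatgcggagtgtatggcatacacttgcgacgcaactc
linc-128, chrV:1151478-1151577: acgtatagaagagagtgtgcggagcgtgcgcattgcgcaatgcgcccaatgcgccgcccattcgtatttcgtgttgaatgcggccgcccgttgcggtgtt
mrpr-1, chrII:7200229-7200328: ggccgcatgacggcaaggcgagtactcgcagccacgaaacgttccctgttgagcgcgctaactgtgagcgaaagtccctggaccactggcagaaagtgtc
The F56F3.10 window holds GAGAGA once on each strand, and the other windows hold neither word.

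A small share of the noncoding RNA regions was bound reproducibly. On the IDR list were 39 of the 839 noncoding RNA regions, or 4.65% (exact Clopper-Pearson 95% interval 3.33% to 6.30%), against 575 of all 18286 candidate regions, or 3.14% (2.90% to 3.41%). The intervals overlap, so the share lay close to the background of all regions. At a q-value under 0.05 in the pooled list, as given by the authors' peak caller, 71 noncoding RNA regions (8.46%, interval 6.67% to 10.6%) passed, against 996 of all regions (5.45%). Their median signal value, the authors' enrichment value per region on a scale that differs between lists, was 76.3, against 71.9 for all regions, which put the median noncoding RNA region at the 58.5th percentile of the pooled list. Intervals cover counting error only, and neighbouring regions are not independent, since 130 noncoding RNA regions shared a gene with another. With 1 group and no second condition, no test between samples could be made.

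The noncoding RNA regions differed from regions at the small RNA genes, where binding was far more frequent. On the IDR list were 46 of 127 candidate regions within 100 bp of a small nucleolar RNA gene (36.2%, interval 27.9% to 45.2%), 79 of 358 near a transfer RNA gene (22.1%, 17.9% to 26.7%) and 12 of 45 near a small nuclear RNA gene (26.7%, 14.6% to 41.9%). Each of these intervals lies above that of the noncoding RNA regions. The 303 regions left out also stood high, with 76 on the IDR list (25.1%, 20.3% to 30.4%), and 222 of them had a transfer RNA gene within 250 bp. At the other end, regions with no noncoding or small RNA gene within 250 bp were on the IDR list in 368 of 16109 cases (2.28%, 2.06% to 2.53%), below the interval of the noncoding RNA regions. Of the 39 IDR regions at noncoding RNA genes, 37 had no small RNA gene within 1000 bp. The same was true of 794 of all 839 noncoding RNA regions, and 4.66% of these 794 were on the IDR list. The rule had already left out regions with such a gene within 250 bp. The count of 37 therefore does not set the IDR regions apart from the other noncoding RNA regions.

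**Figure D1:**
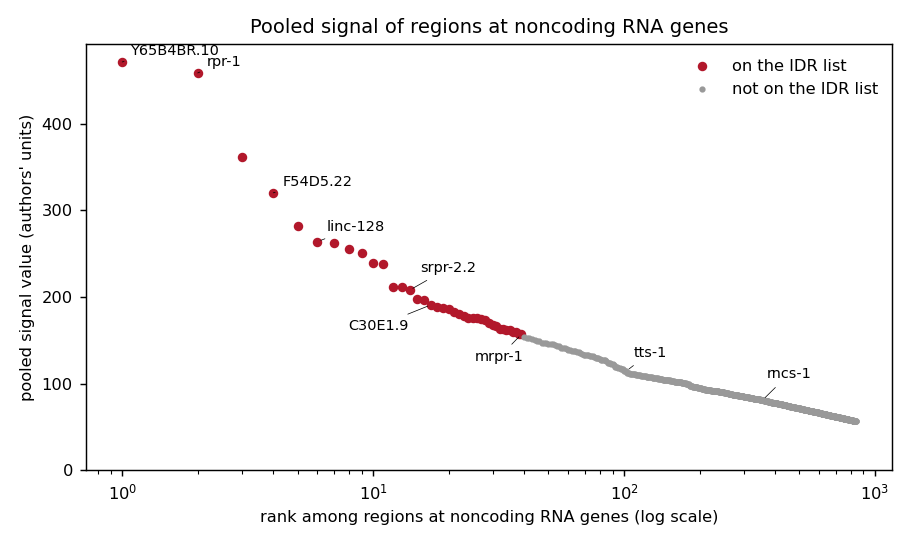
Pooled signal value (authors' units, linear axis) of each of the 839 noncoding RNA regions against its rank among them (log axis). Red points are the 39 regions on the IDR list, which run between 157 and 472, and grey points are the others, which reach at most 153.

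The strongest noncoding RNA region lay at Y65B4BR.10, an ncRNA gene in the promoter of wwp-1, which encodes a ubiquitin ligase. Its pooled signal value was 471.5, rank 9 of all candidate regions, and it ranked 11 in replicate 1 and 11 in replicate 2. The region spans chrI:536774-536986 (ce11), and its summit fell 51 bp into the gene. It thus stood among the strongest regions of either replicate, at the same rank in both.

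The region next in strength lay at rpr-1, the RNase P RNA gene, at chrI:13463755-13464190. Its pooled signal value was 458.8 (rank 10), with rank 10 in replicate 1 and rank 12 in replicate 2. The summit was 18 bp inside the 5′ end of the 253 bp gene, which sits in an intron of ints-8, a gene for a subunit of the Integrator complex that processes small nuclear RNA ends. The RNase MRP RNA gene mrpr-1, in the promoter of pcrg-1, had 2 noncoding RNA regions. The stronger reached 156.8 (rank 552, with rank 639 in replicate 1 and 270 in replicate 2) and was the weakest noncoding RNA region on the IDR list. The other, at 88.1 (rank 4596), fell in the same replicate regions and was not on the list. Both genes for the RNA parts of RNase P and RNase MRP therefore carried an IDR region, at very different signal values. Together they had 3 regions, with 2 on the IDR list, which holds 3.14% of all candidate regions. So few regions give no share for these genes.

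The annotation holds 5 signal recognition particle RNA genes, and 4 had a candidate summit, each in both replicates. Their median percentile in the pooled list was 95.3, and 2 of the 4 regions were on the IDR list. Of all candidate regions, 3.14% were on that list and 49.9% lay in both replicates. A set of 4 regions is too small to give a share for this family. The region shared by srpr-2.2 and R144.16, in an intron of the kinesin gene klp-6, reached 208 (rank 189, with rank 384 in replicate 1 and 92 in replicate 2). Its summit lay inside both of these noncoding RNA genes, so it cannot be assigned to either. The region at srpr-2.1 reached 186.6 (rank 285, with rank 232 in replicate 1 and 817 in replicate 2). Both were on the IDR list. The region at srpr-3, shared with F44A2.13, reached 119.6 (rank 1425, percentile 92.2), and that at srpr-1.2 reached 90.5 (rank 4140, percentile 77.4). Neither was on the list, and srpr-1.1 had no candidate summit within 100 bp.

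The sequences of srpr-2.1 and srpr-2.2 are shown because they are nearly the same, which bears on how reads could be placed. Each is the whole 299-base gene in the direction of transcription, read from the RefSeq genome, with the 3 bases that differ in capitals.
srpr-2.1, chrIII:5211220-5211518, plus strand: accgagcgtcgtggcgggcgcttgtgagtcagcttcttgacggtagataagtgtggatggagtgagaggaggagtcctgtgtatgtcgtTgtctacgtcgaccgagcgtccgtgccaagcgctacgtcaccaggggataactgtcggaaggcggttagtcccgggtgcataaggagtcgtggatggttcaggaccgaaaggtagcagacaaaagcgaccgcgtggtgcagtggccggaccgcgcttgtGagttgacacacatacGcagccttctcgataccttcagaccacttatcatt
srpr-2.2, chrIII:5031410-5031708, minus strand: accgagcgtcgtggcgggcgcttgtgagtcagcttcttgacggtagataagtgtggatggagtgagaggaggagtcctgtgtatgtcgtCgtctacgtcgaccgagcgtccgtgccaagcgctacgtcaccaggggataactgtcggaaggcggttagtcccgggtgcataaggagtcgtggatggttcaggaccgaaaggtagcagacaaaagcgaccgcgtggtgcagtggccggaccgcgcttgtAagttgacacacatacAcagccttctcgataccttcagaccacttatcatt
They were identical at 296 of 299 bases (99.0%), and srpr-1.1 and srpr-1.2 at 98.3%. Across the pairs srpr-1 and srpr-2 the identity was 94.0% to 94.3%, and srpr-3 was 81.7% to 82.5% identical to the others. Of the 36-base words in the 100 bp summit window, 100% at srpr-2.1, 49.2% at srpr-2.2, 100% at srpr-1.2 and 0% at srpr-3 occurred elsewhere in the genome. Reads of near-identical copies may have been split, dropped or assigned to either one. The separate signal values within the srpr-2 and the srpr-1 pair, and the missing summit at srpr-1.1, are therefore uncertain.

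Among the other leading noncoding RNA regions, most lay at short ncRNA genes with sequence names. F54D5.22 lies in the promoter of dnj-13, which encodes a heat shock protein 40 family chaperone, and inside dhgd-1. Its region reached 320.3 (rank 36, with rank 37 in replicate 1 and 38 in replicate 2). C07H6.15 and C07H6.17 shared a region of 282.2, at rank 67 (rank 92 in replicate 1, 33 in replicate 2). F56F3.10 and F56F3.11 shared one of 262.8, at rank 81 (82 in replicate 1, 120 in replicate 2), in the promoters of rps-1, a small ribosomal subunit protein gene, and of ifet-1, a gene for a translational repressor. These regions ranked high in both replicates. Where a summit lay in a protein-coding promoter, as at Y65B4BR.10, F54D5.22 and F56F3.10, it cannot be assigned to the noncoding or the protein-coding gene.

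T04C12.14 had a region of 250.9 (rank 96, with rank 104 in replicate 1 and 50 in replicate 2). The replicates ranked the next regions less evenly. F26F4.14 had one of 238.9, which ranked 327 in replicate 1 and 34 in replicate 2. K10H10.11 and K10H10.14 shared one of 211.9, which ranked 126 in replicate 1 and 1296 in replicate 2. Thus a high pooled value rested more on 1 replicate at K10H10.11 and F26F4.14 than at F54D5.22 or Y65B4BR.10. T28F4.7, in an intron of T28F4.1, had 2 IDR regions, of 255.8 and 211.8, both within the same replicate region (rank 81 in replicate 1, 147 in replicate 2).

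A run of simple repeat lay under a pair of leading regions. T13H2.7 and T13H2.9 shared a region of 237.9 (rank 116, with rank 130 in replicate 1 and 302 in replicate 2). F16A11.7 and the antisense gene anr-20, in an intron of the phosphatase regulatory gene ppfr-1, shared one of 361.8 (rank 23, with rank 20 in replicate 1 and 54 in replicate 2). Their summit windows shared 66 bases, mostly GT repeat, and of their 36-base words 90.8% and 52.3%, in that order, occurred elsewhere in the genome. In all, 4 of the 39 IDR regions at noncoding RNA genes (10.3%) had a 36-base word found elsewhere, namely this pair and the srpr-2 pair, against 12.7% of the whole IDR list.

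The remaining named regions of the 20 strongest had pooled values of 187 to 198. They lay at R03E9.7 and R03E9.10 (197.9), at T28B11.4 and T28B11.18 in an intron of T28B11.1 (196.4), at C30E1.9 (190.9), at T04C10.8 and T04C10.9 (188.8), and at T28D6.10, T28D6.13 and T28D6.15 in an intron of the alpha tubulin gene tba-7 (187.2). The other 19 IDR regions, from 182.5 down to 156.8, lay at ZK265.11, C16C2.7 with C16C2.8, F10C2.10, F58A3.6, Y40B1A.5, WBGene00014492, F52D10.7, C27H6.12, C56G2.18, C08B11.11, F52B5.9, C56C10.14 with C56C10.15, F28C1.14, linc-1, W06B11.8, C30E1.9 (2 regions), C06A6.14 and mrpr-1. The weakest inside the IDR list were C30E1.9 (159.3), C06A6.14 (157.6) and mrpr-1 (156.8). The strongest outside it were ZK652.14 (153.4), T19F4.5 with T19F4.6 (152.8) and F40F9.14 with F40F9.15 (152.3), so values on both sides of the threshold were close.

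All 39 IDR regions at noncoding RNA genes had their pooled summit in a candidate region of both replicates, as did 573 of the 575 peaks of the whole IDR list. Their ranks ran from 10 to 1068 in replicate 1 (median 318) and from 11 to 2503 in replicate 2 (median 302). Among the strongest 575 regions of each replicate were 35 of them in replicate 1, 27 in replicate 2 and 23 in both. Of the 575 peaks of the whole IDR list, 487, 365 and 293 were, in that order. The strongest 575 make up 3.17% of the replicate 1 list and 2.27% of the replicate 2 list. Such ranks were part of what put a region on the IDR list, so they only describe these regions. The rank was better in replicate 1 for 26 and in replicate 2 for 12. The lowest ranked in replicate 1 was W06B11.8, at rank 1068 there and 168 in replicate 2, and the lowest ranked in replicate 2 was a C30E1.9 region, at rank 505 in replicate 1 and 2503 in replicate 2.

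**Figure D2:**
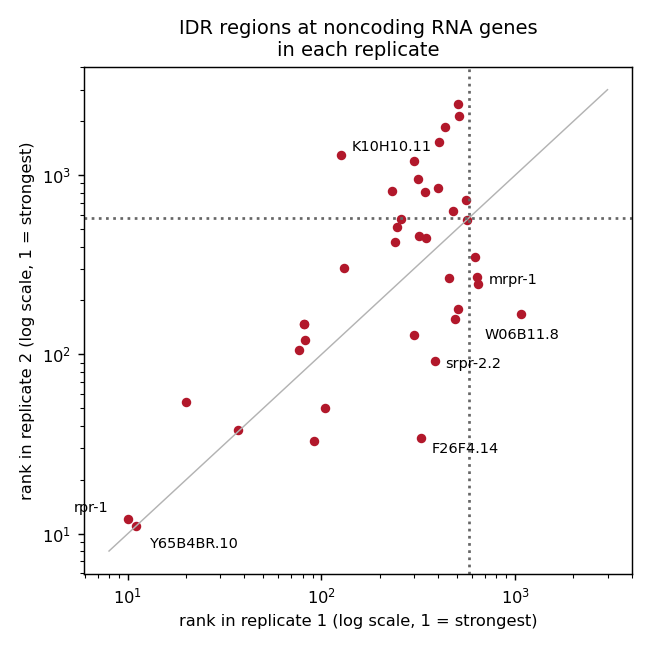
Rank of the 39 IDR regions at noncoding RNA genes in the candidate list of replicate 1 (x axis) and replicate 2 (y axis), both on log axes with 1 the strongest. The thin line marks equal ranks and the dotted lines mark rank 575; 23 regions lie inside both dotted lines.

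Over all 839 noncoding RNA regions, 701 (83.6%) had their summit in a region of replicate 1 and 596 (71.0%) in one of replicate 2, against 79.0% and 68.0% of all candidate regions. In both replicates were 484, or 57.7% (54.3% to 61.1%), against 9130 of all candidate regions, or 49.9% (49.2% to 50.7%). These intervals do not overlap. Among the 484, the replicate 1 and replicate 2 signal values correlated with a Spearman coefficient of 0.435, against 0.399 over the 9130, a description across regions that share libraries. When the same rule was applied to each replicate's own list, 41 of 838 noncoding RNA regions (4.89%) were among the strongest 575 of replicate 1, against 3.17% of its whole list. In replicate 2 these were 40 of 1083 (3.69%), against 2.27% of its whole list. In each replicate alone, the share thus exceeded that of the whole list.

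The strongest region at a long intergenic RNA gene was that at linc-128, and the strongest at an antisense RNA gene was that at anr-20. Of 170 linc genes, 40 lay at 49 noncoding RNA regions, and 2 of these regions were on the IDR list, which holds 3.14% of all candidate regions. The first, at linc-128, reached 263.9 (rank 76, with rank 77 in replicate 1 and 106 in replicate 2), and the second, at linc-1, reached 161.6 (rank 496, with rank 561 in replicate 1 and 562 in replicate 2). The next, at linc-105, reached 123.5 (rank 1283). The 49 regions had a median percentile of 61.0 in the pooled list. Of 57 anr genes, 9 lay at 11 noncoding RNA regions with a median percentile of 78.2, and the anr-20 region, shared with F16A11.7, was alone on the IDR list. With so few regions, neither count can be told from the share of all candidate regions. A further 127 linc genes and 48 anr genes had no candidate summit within 100 bp, and 3 linc genes had only regions left out for a small RNA gene.

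Of 3 long noncoding genes with published roles, 2 had a candidate region, and both regions ranked in the upper part of the pooled list but were not on the IDR list. tts-1, a long noncoding RNA linked to lifespan and ribosome levels, had a region of 114.3 (rank 1698, percentile 90.7, with rank 1333 in replicate 1 and 7403 in replicate 2). rncs-1, a noncoding RNA that inhibits Dicer and responds to food, had one of 81.0 (rank 6206, percentile 66.1, with rank 2654 in replicate 1 and 21483 in replicate 2). lep-5, a long noncoding RNA of developmental timing, and the Y RNA gene yrn-1 had no candidate summit within 100 bp. The 30 spliced leader genes are annotated as small nuclear RNA genes and so lie outside the rule.

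By biotype, 37 of 767 regions at ncRNA genes (4.82%), 2 of 52 at lincRNA genes (3.85%) and 1 of 26 at antisense RNA genes (3.85%) were on the IDR list, with some regions counted under more than 1 biotype. The numbers of lincRNA and antisense regions are too small to tell their shares from that of ncRNA genes. The median gene length was 140 bp for ncRNA, 761 bp for lincRNA and 689 bp for antisense RNA genes. Counted by gene, 983 of 8058 noncoding RNA genes (12.2%) had a noncoding RNA region, and 51 (0.633%) had one on the IDR list. Most annotated noncoding RNA genes thus had no candidate summit that met the rule.

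**Figure D3:**
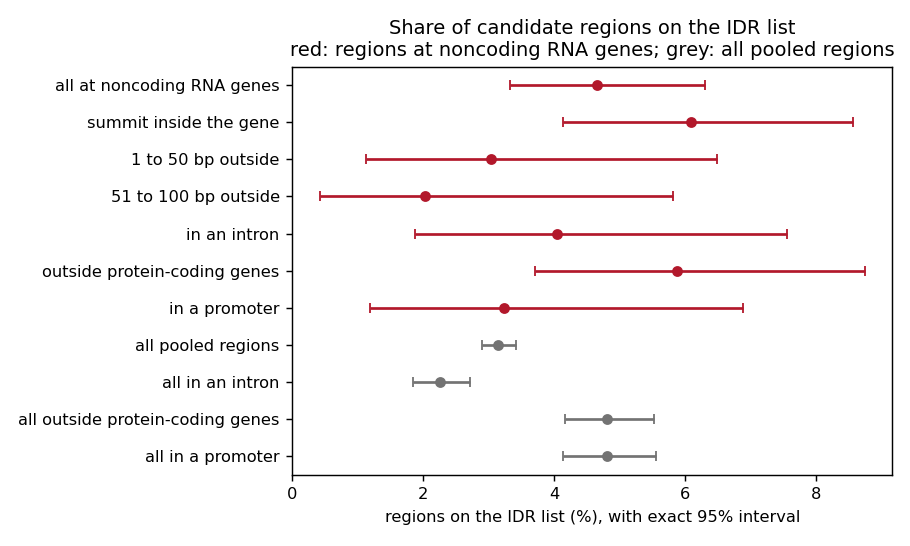
Percent of candidate regions on the IDR list, with exact 95% intervals, for noncoding RNA regions (red) by summit position and protein-coding context, and for all pooled regions (grey). Regions with the summit inside the gene were at 6.09% and all pooled regions at 3.14%, and the intervals of most other groups overlap.

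Summits inside the noncoding RNA gene were on the IDR list more often than all candidate regions were. Inside the gene, 30 of 493 regions (6.09%, 4.14% to 8.57%) were on the list, an interval above that of all candidate regions. At 1 to 50 bp outside, 6 of 198 (3.03%, 1.12% to 6.48%) were, and at 51 to 100 bp 3 of 148 (2.03%, 0.42% to 5.81%). Outside the gene, 4 of 186 upstream summits (2.15%, 0.589% to 5.41%) and 5 of 160 downstream summits (3.12%, 1.02% to 7.14%) were listed. Each of these intervals overlaps that of summits inside the gene, so the counts do not separate inside from outside. For genes of up to 300 bp with the summit inside, 10 of 22 IDR summits lay nearer to the 5′ than to the 3′ end, as did 185 of 364 summits of all noncoding RNA regions. The IDR summits thus lay on both sides of the middle of the gene.

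By protein-coding context, the noncoding RNA regions had shares on the IDR list with wide intervals. In introns, the list held 9 of 222 intronic noncoding RNA regions (4.05%, 1.87% to 7.56%), against 103 of all 4581 intronic regions (2.25%, 1.84% to 2.72%), and these intervals overlap. Among intronic regions with no noncoding or small RNA gene within 250 bp the share was 38 of 3955 (0.961%, 0.681% to 1.32%), and this interval lies below that of the intronic noncoding RNA regions. Outside protein-coding genes and promoters, 22 of 375 noncoding RNA regions (5.87%, 3.71% to 8.75%) were listed, against 195 of all 4052 such regions (4.81%, 4.17% to 5.52%) and 100 of 3200 with no noncoding or small RNA gene within 250 bp (3.12%, 2.55% to 3.79%). In protein-coding promoters (500 bp upstream to 100 bp downstream of a 5′ end) they were 6 of 186 (3.23%, 1.19% to 6.89%), against 174 of all 3620 (4.81%, 4.13% to 5.55%) and 140 of 3188 with no such gene nearby (4.39%, 3.71% to 5.16%). In coding exons 0 of 32 noncoding RNA regions were listed (interval 0% to 10.9%), against 64 of all 5097 (1.26%). In 3′ UTRs 2 of 18 were (11.1%, 1.38% to 34.7%), against 36 of all 770 (4.68%), and in 5′ UTRs 0 of 6, against 3 of all 166 (1.81%). Introns with no RNA gene nearby were thus the one comparison among these with an interval apart from that of the noncoding RNA regions, and in promoters the noncoding RNA regions had the lower share.

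Across chromosomes, 10 of 97 noncoding RNA regions on chromosome I (10.3%, 5.06% to 18.1%) were on the IDR list, against 107 of all 2988 candidate regions there (3.58%, 2.94% to 4.31%). The listed shares were 6 of 91 on chromosome II (6.59%, against 3.24% of all regions there), 7 of 101 on III (6.93%, against 3.55%) and 1 of 101 on IV (0.99%, against 85 of all 2830). They were 6 of 173 on V (3.47%, against 2.30%) and 9 of 276 on X (3.26%, against 3.33%). Except on chromosome I, each interval of the noncoding RNA regions overlaps that of all regions of the same chromosome. The chromosome I count includes both leading regions, Y65B4BR.10 and rpr-1, and both T28F4.7 regions.

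C30E1.9, a 14770 bp ncRNA gene at chrX:16929914-16944683, held more noncoding RNA regions than any other gene, with 12. Their pooled values ran from 57.1 to 191, and 8 of them lay in both replicates. The 3 on the IDR list had summits 983, 1718 and 14598 bp from the annotated 5′ end, with values of 160, 191 and 159. They ranked 505, 259 and 435 in replicate 1, and 2503, 571 and 1852 in replicate 2, in that order. The 5 regions with summits between 2642 and 12948 bp had values of 57.1 to 84.6, so the strong regions lay toward both ends of the gene. Not all regions near the ends were strong, since that at 1183 bp reached 68. It had rank 2503 in replicate 2, as did the region at 983 bp. The regions at 14598 and 14803 bp also had the same ranks, 435 in replicate 1 and 1852 in replicate 2, so they are not distinct in the replicates. W06H8.5 and linc-129 had 5 regions each, none on the IDR list, with highest values of 150 and 118.

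**Figure D4:**
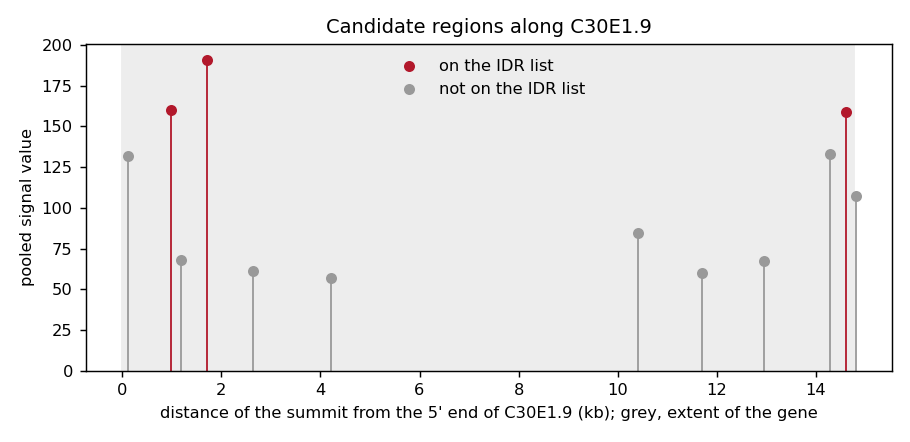
Pooled signal value of the 12 noncoding RNA regions along C30E1.9 against the distance of the summit from the annotated 5′ end (kb). Red marks the 3 regions on the IDR list, with values of 160, 191 and 159, and the values between 2642 and 12948 bp lie at 57.1 to 84.6.

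Summit sequences of noncoding RNA regions were rich in the word GAGAGA. On either strand of the 100 bp window it occurred in 156 of 839 noncoding RNA regions (18.6%, 16.0% to 21.4%), against 1592 of all 18286 regions (8.71%, 8.30% to 9.12%). It was also more frequent outside protein-coding genes (21.6%, against 11.7% of all such regions), in introns (15.3% against 7.53%) and in promoters (17.7% against 11.0%). Of the IDR regions at noncoding RNA genes 11 of 39 held it (28.2%, 15.0% to 44.9%), against 13.7% of the whole IDR list, with overlapping intervals (11.0% to 16.8% for the list). The rpr-1 window is among those that hold it.

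The word was common at noncoding RNA genes whether or not they had a candidate summit. In 100 bp windows at the middle of the gene, for genes whose middle had no small RNA gene within 250 bp, GAGAGA occurred at 186 of 977 genes with a noncoding RNA region (19.0%, 16.6% to 21.6%), 847 of 6427 genes without one (13.2%, 12.4% to 14.0%) and 1035 of 20050 windows placed every 5000 bases along the genome (5.16%). The G+C content of the same windows was 47.5%, 42.1% and 35.4%, in that order. In the summit windows it was 45.3 ± 9.13% for noncoding RNA regions (SD, 839 windows) and 41.6 ± 9.29% for all candidate regions. The part of base composition in the word counts was not tested. Where the nearby genes lay on 1 strand, the word was on the gene's strand in 62 regions and on the other strand in 51.

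Among the other words, ACGCAG was somewhat more frequent than in all regions, though not in introns, and the rest were less frequent. ACGCAG, a word frequent in the whole IDR list, came from an earlier account of these data, so its counts are no independent evidence. It occurred in 46 noncoding RNA regions (5.48%, 4.04% to 7.25%), against 3.89% of all regions (3.62% to 4.18%), with intervals that overlap. Its share was higher outside protein-coding genes (6.67% against 5.55% of all such regions) and in promoters (8.6% against 5.72%). In introns its share was lower (1.8% against 3.34%), and in each context the intervals overlap. With the summit inside the gene it occurred in 7.71% (5.51% to 10.4%), and in 200 bp windows in 11.1% of noncoding RNA regions (9.04% to 13.4%), against 7.39% of all regions. At the middle of the gene it occurred in 5.94% of genes with a noncoding RNA region, 3.27% of genes without one and 1.84% of the windows along the genome. In IDR regions it occurred in 2 of 39 at noncoding RNA genes (5.13%, 0.627% to 17.3%), against 11.3% of the whole IDR list (8.83% to 14.2%). GTTCGANNC, the core of the B box in RNA polymerase III genes such as transfer RNA genes, occurred in 5 noncoding RNA regions (0.596%, 0.194% to 1.39%), against 1.67% of all regions (1.49% to 1.86%). In IDR regions it occurred in 1 of 39, at K10H10.11, against 7.30% of the IDR list. All regions and the IDR list include transfer RNA and other small RNA loci, which the choice of noncoding RNA regions removed, so these shares are not like for like. The same limit holds for ACGCAG and the other words, and no word was recounted with those loci left out. The lower share of GTTCGANNC is no result about the noncoding RNA regions. At the middle of the gene it occurred in 1.43% of genes with a noncoding RNA region, 1.28% of genes without one and 0.693% of the windows along the genome. TATAAA occurred in 5.72% of noncoding RNA regions, against 7.41% of all, and TTTTTT in 25.0%, against 29.8%. Only letters were matched, so these counts say nothing on which protein was bound.

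A run of 16 bases was shared by 2 of the leading regions, on opposite strands. The windows are shown for that reason, with the shared run in capitals; both are 100 bases centred on the summit, on the plus strand of ce11.
F26F4.14, chrIII:4899879-4899978: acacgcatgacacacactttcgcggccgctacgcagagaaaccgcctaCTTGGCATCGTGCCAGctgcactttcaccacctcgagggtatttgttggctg
T28B11.4 and T28B11.18, chrV:10715937-10716036: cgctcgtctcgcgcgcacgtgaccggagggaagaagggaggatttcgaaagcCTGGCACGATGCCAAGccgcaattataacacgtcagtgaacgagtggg
The run occurred in 2 of the 18286 pooled summit windows and at 3 places in the genome, counting both strands. Among 739 pairs of IDR regions at noncoding RNA genes with summits at least 1000 bp apart, this pair and the GT repeat pair shared a run of 12 or more bases. The comparison was chosen after the values were seen and is a description of these sequences.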

How the data were processed

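The deposited files are narrowPeak lists on ce11 for the pooled replicates (all candidate regions and the IDR list) and for each replicate. Per the deposited file lists, the authors made them from alignments with a control library. The sources used here do not give the aligner, the peak caller or their versions. In the authors' deposited lists, column 7 is a signal value whose scale differs between lists, so ranks were compared across lists, and column 9 is the −log10 of the q-value. The lists of the older ce10 build were not used, and the control was not analysed here.

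Noncoding RNA regions were found with Ensembl release 115 (WBcel235, the same build). A pooled region was counted in a replicate when its summit fell in a region of that replicate. Shares carry exact Clopper-Pearson 95% intervals for counting error (scipy 1.17.1, Python 3.11.15). Words were matched on both strands in 100 bp summit windows. A 36-base word was called repeated when found elsewhere in the genome. The region rule and the word matching were tested on simulated data. Alternatives changed the distance, the neighbouring genes, the threshold, the window and the replicate used.

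Named genes are those at the 20 strongest noncoding RNA regions, at IDR regions, on lists of RNAs with known roles, and at the 3 regions on each side of the IDR threshold, and genes with several regions were chosen after their values were seen. The regions, the lists and the word ACGCAG were chosen with earlier results of these data known. Whether the replicates came from separate cultures is stated only as biological replicate numbers.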

Additional observations from a re-analysis of the deposited data

How the results depend on the processing

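For each share and for the median percentile, the noncoding RNA regions stayed above all candidate regions under every alternative run. It held in 10 of 10 for the IDR share or the measure put in its place, and in 8 of 8 for the share in both replicates. For the words it held in 9 of 9 for ACGCAG and 9 of 9 for GAGAGA (alternatives added after seeing the data). For the median percentile it held in 8 of 8. The alternatives mostly reuse the same regions and the same 2 samples, so they are not independent. These counts compare values only and take no account of overlapping intervals. Where an alternative narrowed the noncoding RNA regions by distance, neighbouring genes or repeats, all candidate regions were not narrowed in the same way. Those comparisons are therefore not like for like. With a q-value under 0.05 in place of the IDR list, the share was 8.46% (all candidate regions 5.45%). With a stricter threshold on the IDR list it was 2.38% (all 1.57%). When a replicate was left out, the strongest 575 regions of the other replicate's own list took the place of the IDR list. That share was 3.69% to 4.89% (all 2.27% to 3.17%) and does not measure reproducibility. The share in both replicates was 41.6% when replicate summits had to lie within 100 bp (all 36.4%). ACGCAG occurred in 7.71% with the summit inside the gene (all 3.89%), 11.1% in a 200 bp window (all 7.39%), and 4.99% to 5.97% when a replicate was left out. GAGAGA occurred in 29.3% in a 200 bp window (all 15.7%) and in 15.3% to 18.6% when a replicate was left out. The median percentile was 60.6 for summits inside the gene, 56.4 at 250 bp, 57.0 without protein-coding promoters or exons, 58.8 without repeated sequence, and 55.6 to 55.9 when a replicate was left out. The causes of these shifts were not tested. Depth is unknown, and lists per region give no reads, so differences between neighbouring ranks could not be judged. No paired analysis was possible because there is only 1 group.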
